A study of Homo sapiens with 12 samples.

Results

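The zinc finger genes of human chromosome 19 were examined in spheroids of Caco-2, an established colorectal adenocarcinoma cell line. Members were all protein-coding genes of chromosome 19 in the deposited table whose symbol is ZNF followed by a number, with at most 1 further letter. This gave 257 of the 48162 genes of the table. They carry 246 symbols, because 11 symbols stand on 2 rows each. The cells, at passage 26, had grown in Matrigel for 5 days in medium with 20% serum and were then exposed for 4 h. The 4 groups, of 3 libraries each, were methotrexate (an antifolate drug), lactoferrin (an iron-binding milk protein), methotrexate with lactoferrin, and control (carrier fluid). All groups are of 1 cell line. The labels name no separate cultures behind the 3 libraries of a group, so p-values measure only the spread between libraries, which may be technical.

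Most of these genes encode proteins in which an array of C2H2 zinc fingers reads DNA and an N-terminal KRAB domain recruits the corepressor TRIM28. TRIM28 in turn brings the histone methyltransferase SETDB1 and HP1 proteins, and the best known targets are transposable elements. The family grew by repeated local duplication, which left its genes in long tandem clusters on chromosome 19. Neighbours in a cluster are often close paralogs, so the counting may have split or shared reads between them.

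The label of the members was checked on sequence. In the GENCODE transcripts an open reading frame could be assigned to 249 members. A C2H2 pattern (paired cysteines 2 residues apart, 12 residues further paired histidines 3 to 5 residues apart) occurred a median of 12 times per member, with a range of 0 to 36. A KRAB-type pattern was found in 204 of the 249, or 81.9%. It is a short fixed pattern searched in the longest open reading frame, and how many KRAB domains it misses was not measured. Windows of 300 bases around the first listed RefSeq start (250 before, 50 after) were available for 219 members. They held a median of 20 CG dinucleotides, with a range of 2 to 49, and at least 15 in 74.9% of the members, against 48.8% of the 27305 symbols of the whole promoter table. CG was counted once per site, since it reads the same on both strands.

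Promoter stretches of 5 members are printed because the results turn on these genes. ZNF43, ZNF568, ZNF667 and ZNF677 had at most 2 counts in all of control and many with methotrexate, and ZNF787 had the highest control level. Each is the 250 bases before the first listed RefSeq start on GRCh38.p14, 5′ to 3′ on the gene's own strand, with each CG in capitals. ZNF677 has 2 listed starts, and the other genes printed have 1.
ZNF43 (chr19:21836183-21836432, minus strand): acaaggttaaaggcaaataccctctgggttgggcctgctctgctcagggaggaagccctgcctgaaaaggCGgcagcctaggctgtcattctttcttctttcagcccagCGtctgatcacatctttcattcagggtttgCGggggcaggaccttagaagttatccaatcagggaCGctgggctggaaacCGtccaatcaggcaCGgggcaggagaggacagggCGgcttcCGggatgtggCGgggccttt
ZNF568 (chr19:36916082-36916331, plus strand): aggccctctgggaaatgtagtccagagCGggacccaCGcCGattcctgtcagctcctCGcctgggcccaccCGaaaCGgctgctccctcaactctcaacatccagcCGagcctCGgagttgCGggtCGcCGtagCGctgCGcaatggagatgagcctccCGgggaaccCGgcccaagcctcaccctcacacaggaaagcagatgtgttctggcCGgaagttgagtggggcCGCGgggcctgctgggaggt
ZNF667 (chr19:56477346-56477595, minus strand): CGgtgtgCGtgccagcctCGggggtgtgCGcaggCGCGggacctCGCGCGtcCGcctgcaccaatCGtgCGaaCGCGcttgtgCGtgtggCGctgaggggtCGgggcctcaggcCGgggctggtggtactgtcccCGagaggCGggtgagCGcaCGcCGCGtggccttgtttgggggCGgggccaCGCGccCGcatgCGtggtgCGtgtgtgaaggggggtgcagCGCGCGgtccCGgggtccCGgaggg
ZNF677 (chr19:53254824-53255073, minus strand): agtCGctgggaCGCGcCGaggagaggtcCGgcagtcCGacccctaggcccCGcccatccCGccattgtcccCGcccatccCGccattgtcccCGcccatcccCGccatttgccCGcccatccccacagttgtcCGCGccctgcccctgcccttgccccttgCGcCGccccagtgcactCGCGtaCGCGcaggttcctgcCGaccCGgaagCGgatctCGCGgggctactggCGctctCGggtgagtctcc
ZNF787 (chr19:56121296-56121545, minus strand): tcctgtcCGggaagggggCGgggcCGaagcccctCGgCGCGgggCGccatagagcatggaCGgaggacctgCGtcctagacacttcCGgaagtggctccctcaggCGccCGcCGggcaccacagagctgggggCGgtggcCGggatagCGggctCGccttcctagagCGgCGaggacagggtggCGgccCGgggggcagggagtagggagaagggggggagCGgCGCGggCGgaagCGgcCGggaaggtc
The stretch of ZNF43 held 9 CG sites and that of ZNF568 held 18. Those of ZNF667, ZNF677 and ZNF787 held 35, 28 and 27. The CG content did not separate the genes scarce in control from the abundant one in these 5 stretches. Whether any of these sites was methylated was not measured.

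The methotrexate libraries stood apart from the other 9. They held 47459811, 60591667 and 57029030 counts, against 18714054 to 23859094 in the 9 other libraries, so that 3 counts correspond to between 0.0495 and 0.16 CPM (counts scaled to library size). Intervals and floors here cover counting error alone. The 10 epithelial markers summed to 3210 to 3570 CPM with methotrexate, 6500 to 6970 with lactoferrin, 6440 to 6820 with both agents and 6830 to 7280 CPM in control, and 9 of 9 tested fell with methotrexate. The 8 fibroblast markers summed to 9430 to 10900, 105 to 127, 109 to 119 and 105 to 120 CPM in the same order, and the 7 adipocyte markers to 14200 to 14700, 16.2 to 17.4, 15.6 to 18.5 and 14.9 to 22.7 CPM, all 15 rising with methotrexate. The 6 blood markers summed to 26.6 to 34.2 CPM with methotrexate and 12.7 to 15.1 in control, with CD68 and HBB at 0 in both groups and CD163 at 0 in control. The 4 endothelial markers present reached 5 to 5.57 CPM with methotrexate and 1.89 to 2.64 in control. The part of these markers' cell types in the member results was not tested, and values at equal depth are given below. In bulk RNA, fewer cells of a type and less RNA per cell cannot be told apart.

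In control spheroids the median level of the family was below that of all coding genes. Per kilobase of the table's gene length, the mean control level was at least 10 CPM per kb for 9 members, between 1 and 10 for 114, between 0.1 and 1 for 61 and below 0.1 for 73. The median was 0.949 CPM per kb, with quartiles of 0.0502 and 2.25. The corresponding medians were 1.42 for the 1224 other coding genes of the chromosome, 2.22 for the 264 ZNF genes of other chromosomes, and 1.57 CPM per kb for all coding genes. The quartiles were 0.0197 and 16.9 for the other coding genes of the chromosome, 0.608 and 5.69 for the other ZNF genes, and 0.0172 and 11.3 for all coding genes. The lower quartile of the members was thus not below that of coding genes at large. All member counts together made up 0.174 to 0.189% of a control library.

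The 8 members with the highest control level per kilobase lay mostly in the cluster nearest the end of the long arm. ZNF787 stood first, at 55.9 ± 5.73 CPM per kb (SD, n = 3, as for all means below), followed by ZNF581 at 43.9 ± 2.36. ZNF579 reached 23.5 ± 5.87 CPM per kb and ZNF444, a SCAN-domain factor first described in endothelial cells, 19.1 ± 3.23. ZNF579 and ZNF444 did not differ beyond their spread. ZNF146, which consists of zinc fingers with no KRAB domain and is overexpressed in some colorectal and pancreatic tumours, had 15 ± 1.4 CPM per kb. ZNF428 and ZNF580, both at 13.1 CPM per kb, with SDs of 2.67 and 2.66, could not be ordered, and ZNF784 followed at 10.7 ± 1.0. ZNF580 and ZNF581 overlap on the chromosome, so their reads cannot be told apart where the exons coincide.

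The KRAB pattern went with a lower control level. The median control level was 0.786 CPM per kb in the 204 members with the pattern and 3.28 CPM per kb in the 45 without it. None of the 8 highest members carried the pattern. No test was made of this split, because the members of a cluster share ancestry. Members without the pattern may include some with a KRAB domain that it missed.

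**Figure D1:**
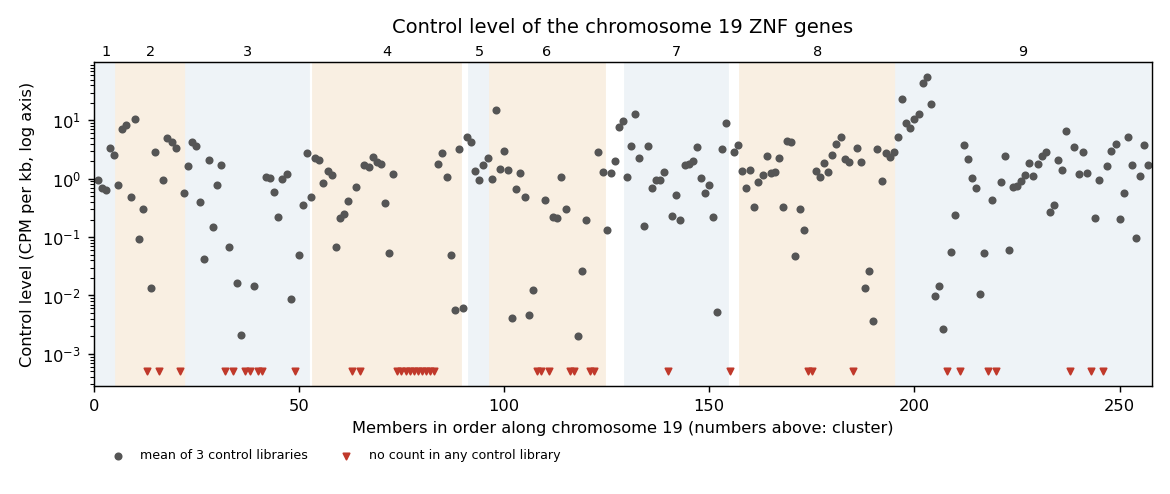
Mean level in the 3 control libraries (CPM per kb, log axis) of the 257 members in their order along chromosome 19, with the 9 clusters shaded and triangles for members with no count in any control library. The highest points stand at the start of cluster 9, and an unbroken row of triangles marks members of cluster 4.

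Along the chromosome, 246 of the 257 members fell into 9 clusters, defined as runs of at least 5 members with no gap over 1 Mb between neighbouring starts, and 11 were scattered. With a gap of 500 kb there were 10 clusters. The clusters differed in how many members were close to silent in control. Those with 3 or fewer counts over the 3 control libraries together numbered 57, and the share of all coding genes as scarce was not computed. They were 11 of 30 members of cluster 3 (11.6 to 12.8 Mb on hg19), 13 of 36 in cluster 4 (19.8 to 24.3 Mb) and 11 of 28 in cluster 6 (36.7 to 38.3 Mb). In cluster 7 (44.0 to 45.6 Mb) they were 2 of 25, in cluster 8 (52.1 to 54.1 Mb) 4 of 38, and in cluster 9 (56.0 to 59.0 Mb) 10 of 62. Clusters 1 (2.8 to 2.9 Mb) and 5 (35.2 to 35.5 Mb), of 5 members each, had none, cluster 2 (7.1 to 9.9 Mb) had 4 of 17, and 2 of the 11 scattered members were as scarce.

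The scarce members often lay side by side. In cluster 4, 10 consecutive members from ZNF43 to ZNF730 had 3 or fewer control counts, and in cluster 3 the 8 consecutive rows from ZNF433 to ZNF625 did. In cluster 6 a run of 4 covered ZNF790, ZNF345, ZNF829 and ZNF568. These runs included rows with hardly any count in the whole experiment. In all, 11 members had no count in any library.

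Levels within a cluster spanned a wide range. The median control level ran from 0.187 CPM per kb in cluster 3 and 0.217 in cluster 6 to 1.33 in cluster 8 and 1.69 in cluster 5. In cluster 6, ZNF146 had 15 CPM per kb while ZNF570 had no control count. In cluster 9, ZNF787 had 55.9 CPM per kb while ZNF135 had no control count. In cluster 8 the highest was ZNF468, at 5.22 ± 0.626 CPM per kb, and the lowest tested was ZNF677, at 0.00366. In cluster 2, ZNF317 reached 10.5 ± 0.225 CPM per kb, against 0.0927 ± 0.066 for ZNF699. ZNF254 led cluster 4 with 3.21 ± 0.462 CPM per kb, ZNF627 led cluster 3 with 4.19 ± 0.375, and ZNF302 led cluster 5 with 4.23 ± 0.212.

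More members were detected with methotrexate than in any other group, and so were more genes of the whole table. Before thinning, 26285, 27433 and 27205 genes of the table had a count with methotrexate, against 21385 to 22520 in the other 9 libraries. The gain is thus not particular to the members, and no value at equal depth is given for the whole table. At least 1 count was present for 239, 244 and 239 members with methotrexate, 207, 207 and 210 with lactoferrin, 214, 214 and 218 with both agents, and 208, 204 and 208 in control. The methotrexate libraries were deeper, and after all libraries were thinned to 18714054 counts the methotrexate libraries still held 234, 235 and 234 members, against 208, 202 and 206 in control. With lactoferrin the thinned values were 206, 207 and 210, and with both agents 212, 214 and 217. The methotrexate libraries did not overlap with the other 9 at either depth. Members took 0.169, 0.174 and 0.157% of all counts with methotrexate, against 0.182, 0.189 and 0.174% in control. After TMM scaling they summed to 1980, 2040 and 1770 CPM with methotrexate, against 1730, 1810 and 1720 in control, so the direction of the summed level depends on the scaling.

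Methotrexate against control gave calls in both directions, with rises in the majority. Of the 217 members that passed the filter on low counts, 96 rose and 27 fell (44.2 and 12.4%) by edgeR's quasi-likelihood test at a Benjamini-Hochberg adjusted p under 0.05, and 94 were not called. Over all 16733 genes tested, 35.4% rose and 29.1% fell, 64.5% in either direction. The median log2 fold change of the members was 0.39, against 0.03 for all genes tested, -0.14 for the 818 other coding genes of the chromosome tested and -0.06 for the 232 ZNF genes of other chromosomes tested, of which 64 rose and 62 fell. These medians are descriptions, and no test was made of the members as a set. Of the 217, 32 passed the filter only because of their methotrexate counts, which selects them for a difference, and 31 of these were called. In the other 185, 65 rose and 27 fell, with a median of 0.22.

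The direction of the smaller changes depended on the scaling. With libraries scaled on 26 epithelial genes in place of all genes, the median of all genes tested moved to 1.02, and 78.1% of them rose and 0.233% fell. On that scale 198 of the 217 members rose and 0 fell, with a median of 1.38.

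On the default scale a larger share of the members with little RNA rose, but these classes include members kept by the filter only for their methotrexate counts. All genes tested, of which 35.4% rose and 29.1% fell, were not split by level. Whether other genes with little RNA rose as often is therefore not known. Below an average log2 CPM of 0, 13 of 19 rose and 0 fell. Among the 69 members with an average log2 CPM of 0 to 2, 46 rose and 4 fell, with a median log2 fold change of 1.38. Among the 129 above 2, 37 rose and 23 fell, with a median of 0.05. Under the epithelial scaling 17 of 18, 60 of 65 and 121 of 134 rose in these 3 classes, with 0 falls and medians of 3.60, 2.24 and 1.1. On the default scale, of the 177 tested members with a KRAB pattern, 86 rose and 18 fell, with a median of 0.50. Of the 38 tested without it, 9 rose and 9 fell, with a median of -0.20. The KRAB split and the level split are not independent, since members with the pattern had lower levels. Most members kept by the filter only for their methotrexate counts carry the pattern, so the KRAB split is also affected by that selection.

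**Figure D2:**
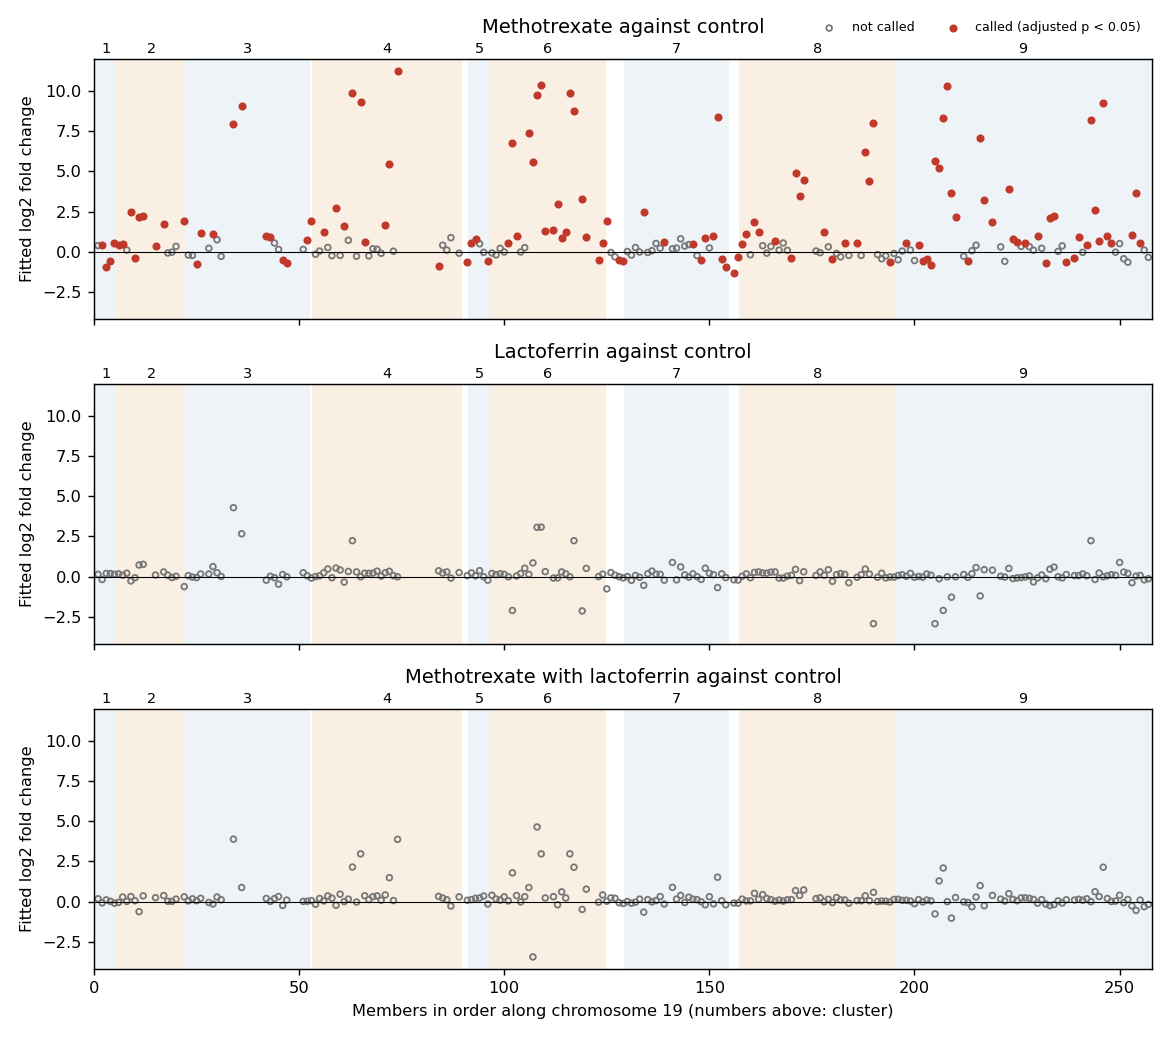
Fitted log2 fold change of the 217 tested members in their order along chromosome 19, for methotrexate, lactoferrin and both agents, each against control, with filled points for an adjusted p under 0.05. With methotrexate 96 members rose and 27 fell, and with lactoferrin or both agents 0 members were called. Fitted values of members with almost no control counts depend on the prior count.

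The rises named by rule were in 6 members that control spheroids hardly held. The rule takes the largest fold changes among called members whose average log2 CPM was 1 or more and whose libraries in the 2 groups did not overlap. All 6 are among the 32 that entered the test only through their methotrexate counts, so their values are a description and no p is given. ZNF43 (ENSG00000198521, cluster 4, 21987752 to 22034927 on hg19, minus strand), a KRAB zinc finger gene, had 9.57, 11.7 and 11 CPM with methotrexate. It had 0 counts in each lactoferrin library, 2, 1 and 1 counts with both agents, and 0 in each control library. The methotrexate libraries were far above the other 9, at least 251-fold higher than control, against a floor of 3 counts over the group.

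ZNF568 (ENSG00000198453, cluster 6, 37407231 to 37489602, plus strand), whose mouse counterpart represses a placental transcript of Igf2, had 6.34, 5.53 and 5.76 CPM with methotrexate. Its counts were 0, 0 and 2 with lactoferrin, 0, 0 and 2 with both agents, and 0 in each control library. This was at least 135-fold higher with methotrexate than in control. Its neighbour ZNF829 starts 38 bases away on the other strand and had 148, 195 and 190 counts with methotrexate, against 0 in each control library.

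ZNF844 (ENSG00000223547, cluster 3, 12175514 to 12192380, plus strand) had 10.3, 9.66 and 10 CPM with methotrexate. It had 2, 1 and 4 counts with lactoferrin, 0, 1 and 1 with both agents, and 0, 0 and 1 in control. The ratio of methotrexate to control was 691, with a 95% counting interval of 124 to 27300. ZNF229 (cluster 7, 44921685 to 44952766, minus strand) had 9.84, 11.3 and 11.2 CPM with methotrexate and 0, 0 and 2 counts in control, a ratio of 376 (104 to 3110). Both genes had low single-digit counts in every library outside methotrexate, and the groups did not overlap.

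ZNF667 (cluster 9, 56950694 to 56989434, minus strand) had 6.14, 5.84 and 5.95 CPM with methotrexate, with 3, 2 and 0 counts in the libraries with both agents and 0, 0 and 1 in control. Its ratio to control was 414 (74.1 to 16400). ZNF677 (cluster 8, 53731577 to 53758151, minus strand), a gene reported as silenced by promoter methylation in lung cancer, had 7.94, 9.46 and 7.82 CPM with methotrexate. It had 1 count in each library with both agents and 2, 0 and 0 counts in control, a ratio of 293 (81.0 to 2420). The replicates within methotrexate were close to each other in all 6 genes, with means of 10.8 ± 1.09 CPM for ZNF43, 5.87 ± 0.417 for ZNF568, 9.97 ± 0.300 for ZNF844, 10.8 ± 0.820 for ZNF229, 5.98 ± 0.152 for ZNF667 and 8.41 ± 0.917 for ZNF677.

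These 6 belonged to a wider set. Of the 57 members with 3 or fewer control counts, 20 had 100 or more counts over the methotrexate libraries, a set chosen on these values and given without a test. How many other genes of the table pass both cuts was not counted, so the set is not shown to be particular to the members. Together the 20 had 3612, 5147 and 4767 counts with methotrexate, 7, 6 and 14 with lactoferrin, 16, 19 and 18 with both agents, and 6, 2 and 8 in control. In each methotrexate library 20 of the 20 had a count, against 9, 13 and 11 with both agents and 4, 2 and 6 in control. ZNF471 had 234, 321 and 250 counts with methotrexate and 0 in the other 9 libraries. ZNF304, a KRAB factor tied to gene silencing in colorectal cancer cells, had 202, 368 and 344 counts with methotrexate, 0, 0 and 1 with lactoferrin, 1, 2 and 3 with both agents, and 2, 1 and 0 in control.

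The 20 were spread over 6 clusters, with 7 in cluster 6, 6 in cluster 9, 3 in cluster 4, 2 in cluster 3 and 1 each in clusters 7 and 8. Scarce runs differed in how many of their members reached this count. Of the 10 consecutive scarce members from ZNF43 to ZNF730, ZNF43 alone reached 100 counts with methotrexate, whereas 4 of 4 did from ZNF790 to ZNF568 and 2 of 2 in the pair ZNF667 and ZNF471. In the run from ZNF790 to ZNF568, ZNF345 overlaps both ZNF790 and ZNF829 on the opposite strand. Reads in these overlaps cannot be assigned, so the 4 may not be independent. RefSeq windows of 19 of the 20 held a median of 20 CG dinucleotides, against 20.5 in members with over 3 control counts. A KRAB pattern was found in 17 of the 19 with an open reading frame.

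Cluster 6 also held all 4 pairs of members that start within 1 kb of each other on opposite strands. These pairs were looked for after the values were known. They were ZNF529 with ZNF382, ZNF790 with ZNF345, ZNF829 with ZNF568, and ZNF585B with ZNF383. Both genes of each pair were called higher with methotrexate, as were 35.4% of all genes tested. Of the paired genes, ZNF382, ZNF790, ZNF345, ZNF829 and ZNF568 passed the filter only because of their methotrexate counts. This selects them for a rise, so the agreement within pairs is a description. In ZNF529 the log2 fold change was 0.58, with 522 counts over the control libraries, while its partner ZNF382 had 1 count over the control libraries and 290 over the methotrexate libraries. In 3 of the 4 pairs the genes overlap, and no source used here says whether the counting used strand, so reads in the overlap cannot be assigned.

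Some members well above the floor in control also rose, named here after their values were seen. ZNF585B (cluster 6) had 10.5, 10.2 and 9.55 CPM with methotrexate, 0.77, 1.82 and 1.12 with lactoferrin, 1.1, 1.02 and 1.28 with both agents, and 1.53, 0.764 and 1.61 CPM in control, a log2 fold change of 2.96 ± 0.27 (SE, adjusted p = 7.84e-08). ZNF558 (cluster 2) had 9.0, 9.7 and 10.1 CPM with methotrexate, against 1.63, 2.17 and 1.39 in control, a change of 2.46 ± 0.19 (adjusted p = 1.17e-08). ZNF71 (cluster 9) had 5.42, 5.84 and 6.07 CPM with methotrexate, against 1.39, 1.09 and 1.39 in control, a change of 2.16 ± 0.20 (adjusted p = 1.45e-07). In these genes the libraries of the other exposures lay within or near the control range.

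The falls were much smaller, and none of the 6 taken by the same rule remained a called fall under the epithelial scaling. ZNF114 (48675575 to 48790865, plus strand, scattered) had 3.75, 4.0 and 1.15 CPM with methotrexate, against 7.91, 6.95 and 6.81 in control, a log2 fold change of -1.29 ± 0.30 (adjusted p = 0.00151) and of -0.31 under the epithelial scaling. ZNF296 (cluster 7) had 9.07, 8.63 and 6.19 CPM with methotrexate, against 12.3, 15.8 and 18.8 in control, a change of -0.97 ± 0.18 (adjusted p = 0.000181) that became 0.02. ZNF444 had 75.3, 73.3 and 34.0 CPM with methotrexate, against 89.1, 105 and 125 in control, a change of -0.80 ± 0.23 (adjusted p = 0.00632) that became 0.18. Without the third methotrexate library, the lowest of the 12 for ZNF444, it was -0.52. In each of these genes that library was the lowest of its group.

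ZNF823 (cluster 3) had 5.15, 5.51 and 5.16 CPM with methotrexate, against 10.4, 8.4 and 7.65 in control, a change of -0.74 ± 0.19 (adjusted p = 0.00328) that became 0.26 under the epithelial scaling. ZNF551 (cluster 9) had 8.8, 8.86 and 6.69 CPM with methotrexate, against 13.9, 12 and 13.1 in control, a change of -0.68 ± 0.16 (adjusted p = 0.00129) that became 0.31. ZNF724P (cluster 4) had 3.67, 3.08 and 1.67 CPM with methotrexate, against 5.03, 6.11 and 3.97 in control, a change of -0.85 ± 0.28 (adjusted p = 0.0142) that became 0.14. Its call was lost without the third methotrexate library (-0.58), without the second control library (-0.69) and with the methotrexate libraries thinned (-0.76).

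**Figure D3:**
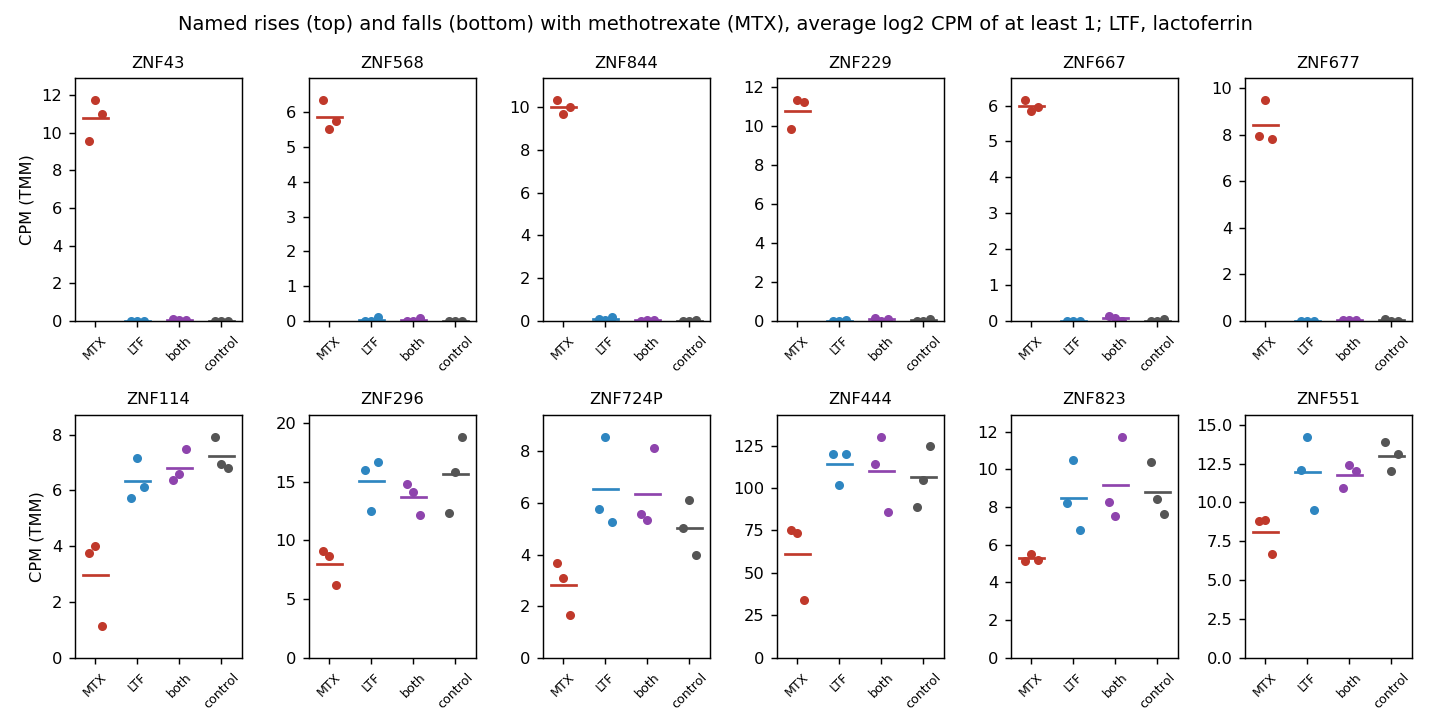
CPM after TMM scaling in every library (points) and group means (lines) for the 6 rises (top) and 6 falls (bottom) with methotrexate (MTX) named by rule among members with an average log2 CPM of 1 or more, with lactoferrin (LTF), both agents and control beside it. In the top row the methotrexate points stand alone between 5.53 and 11.7 CPM, and in the bottom row the third methotrexate library of ZNF444 is at 34.0 CPM.

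Among the members with the highest control level, ZNF444 is given above with the falls. ZNF787 had 90.7, 91.8 and 58.3 CPM with methotrexate, against 96.2, 118 and 109 in control, a log2 fold change of -0.43 ± 0.17 (adjusted p = 0.0347) and of 0.56 under the epithelial scaling. ZNF146 had 52.2, 51.7 and 45 CPM with methotrexate, against 61.6, 56.9 and 51.1 in control, a change of -0.19 ± 0.14 that was not called (adjusted p = 0.257) and became 0.81. ZNF581 fell by 0.55 on the log2 scale and ZNF580 rose by 0.43, with adjusted p-values of 0.000102 and 0.0263, and ZNF581 stood at 0.44 under the epithelial scaling. ZNF579, ZNF428 and ZNF784 were not called, at 0.05, 0.27 and -0.54.

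Summed levels were higher with methotrexate in some clusters and not in others. The 28 members of cluster 6 summed to 170, 175 and 160 CPM with methotrexate, against 135, 131 and 115 in control, and 17 of its 24 tested members rose and 1 fell, with a median log2 fold change of 1.11. Over all genes tested 35.4% rose and 29.1% fell. The counts of clusters 6 and 9 include members kept by the filter only for their methotrexate counts. That selects them for a rise, so the shares and medians of these clusters are raised by it. Cluster 3 summed to 98.0 ± 1.99 CPM with methotrexate and 73.7 ± 4.32 in control, cluster 4 to 161 ± 9.77 and 117 ± 12, and cluster 8 to 325 ± 13.2 and 269 ± 16.4. In clusters 3 to 8 the libraries of the 2 groups did not overlap, and in clusters 1, 2 and 9 they did. Cluster 9 summed to 664 ± 85.4 CPM with methotrexate and 668 ± 54.2 in control although 29 of its 58 tested members rose and 7 fell. Its members ZNF787, ZNF581 and ZNF444, among the most abundant, were lower with methotrexate on this scale but not under the epithelial scaling. The 11 scattered members summed to 123 ± 7.59 CPM with methotrexate and 161 ± 2.90 in control, and 2 of 9 tested rose and 5 fell. Under the epithelial scaling each cluster's median log2 fold change lay between 1.22 and 2.11, and that of the scattered members was 0.66.

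**Figure D4:**
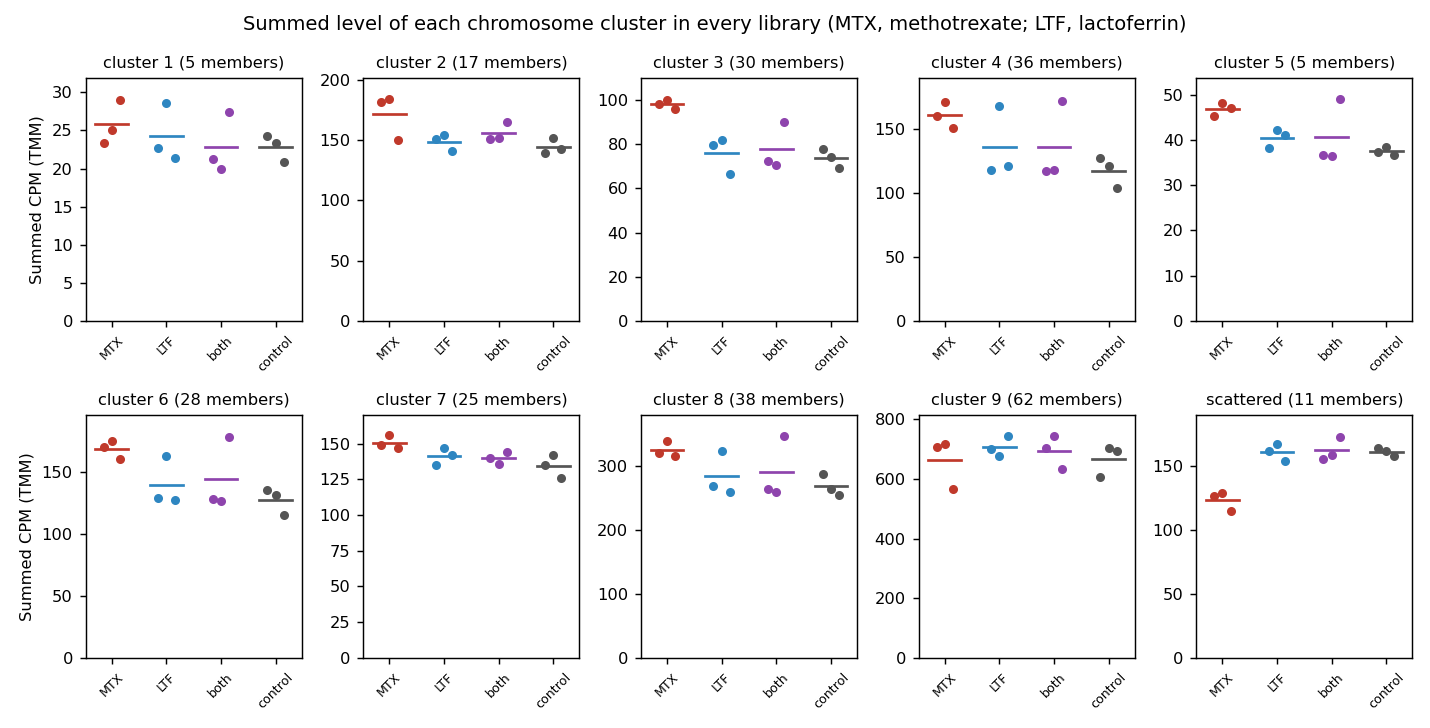
Summed CPM after TMM scaling of the members of each chromosome cluster and of the scattered members in every library (points), with group means (lines). The groups are methotrexate (MTX), lactoferrin (LTF), both agents and control. In clusters 3 to 8 each methotrexate library is above each control library, in cluster 9 they overlap, and in clusters 4, 6 and 8 the second lactoferrin library and the third library with both agents stand above the rest of their groups.

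Lactoferrin against control gave no call among the members. By edgeR's quasi-likelihood test 0 of 217 passed, as did 0% of all genes tested, and DESeq2 called 0 members. An unadjusted p under 0.05 by edgeR's test was reached by 10 members and by 628 of all 16733 genes tested. The median log2 fold change was 0.09, positive in 143 of 217, against 0 for all genes, positive in 8562 of 16733. In the 232 tested ZNF genes of other chromosomes it was 0.05, positive in 149, so this lean was not particular to the members. The lowest unadjusted p was that of ZNF433 (0.0131 by edgeR's test, adjusted p = 1), with 1, 2 and 2 counts with lactoferrin and 0 in each control library. All 5 counts lie near the floor.

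Both agents against control likewise gave 0 calls among the 217, with 0.0299% of all genes called. There were 11 members at an unadjusted p under 0.05 by edgeR, against 591 of all 16733 genes tested, and DESeq2 called 0 members. The median was 0.12, positive in 163 of 217, against 0.01 for all genes, positive in 8765. In the 232 tested ZNF genes of other chromosomes it was 0.06, positive in 153. ZNF528 had 24, 21 and 26 counts with both agents and 13, 17 and 15 in control, a log2 fold change of 0.73 ± 0.27 that did not pass (adjusted p = 1). ZNF829 had 2, 3 and 2 counts with both agents and 0 in each control library (adjusted p = 1). Both agents against lactoferrin gave 0 calls as well, with 0.0179% of all genes called, 0 members by DESeq2 and a median of 0.03. An unadjusted p under 0.05 by edgeR was reached by 12 members and by 564 of all 16733 genes tested.

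Single libraries stood apart from their own groups. Among the 185 members that passed the filter without the methotrexate libraries, the second lactoferrin library lay above the mean of the other lactoferrin libraries in 74.1%, with a median log2 difference of 0.23. The third library with both agents lay above the others of its group in 77.8%, with a median of 0.34. The second methotrexate library lay above its group in 69.2%, with a median of 0.09, and the third in 31.9%, with a median of -0.11. The third control library lay above its group in 32.4%, with a median of -0.10. Over all genes the shares for these libraries, in the order given, were 48.3, 48.4, 56.3, 41.7 and 49.3%. Over all genes the medians of the 12 libraries ran from -0.05 to 0.03. In the third library with both agents the median was 0.40 for the 137 members outside cluster 9 and 0.08 for the 48 in it. Cluster 4, for example, summed to 118, 168 and 121 CPM with lactoferrin and 117, 118 and 172 with both agents, against 127, 121 and 104 in control. The medians of the group comparisons were not computed without these libraries. This comparison of libraries was made after the values were seen, with a pseudocount of 0.1 CPM.

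Both agents against methotrexate share the methotrexate libraries with the comparison above, so the values are given side by side and not as a second line of evidence. Of the 217 members 35 rose and 86 fell with both agents, against 28.8 and 34.4% of all genes tested (63.2% in either direction), and the median log2 fold change was -0.20. The 6 falls named by the same rule, with its limit on average log2 CPM, were ZNF43, ZNF568, ZNF844, ZNF229, ZNF667 and ZNF677. Since they entered the test only through the methotrexate libraries, no p is given. With both agents these 6 had between 0 and 4 counts in any library.

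Among the rises with both agents over methotrexate, ZNF114 led at a log2 fold change of 1.21 ± 0.30 (adjusted p = 0.00263), and ZNF724P followed at 1.18 ± 0.28 (adjusted p = 0.00154). ZNF837, taken by rule here alone, had 12.4, 13.5 and 8.72 CPM with both agents and 8.48, 7.85 and 3.77 with methotrexate, a change of 0.79 ± 0.28 (adjusted p = 0.0215). Its call was lost without the third methotrexate library (0.50) and without the first (0.73) or second (0.67) library with both agents. Without the third methotrexate library 22 members rose with both agents, and without the third library with both agents 23 did. Under the epithelial scaling 0 members rose and 191 fell, against 0.46 and 75.6% of all genes tested.

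Transcripts of the corepressor machinery moved the other way on the default scale. Of 15 listed genes found and tested, 0 rose and 11 fell with methotrexate, against 35.4 and 29.1% of all genes tested, with a median log2 fold change of -0.64. TRIM28, the corepressor that KRAB domains bind, had 690, 659 and 495 CPM with methotrexate, against 1020, 1160 and 1290 in control, a change of -0.91 ± 0.15 (adjusted p = 5.77e-05). SETDB1, its histone methyltransferase partner, had 23.1 ± 3.97 CPM with methotrexate and 31.3 ± 2.45 in control, a change of -0.44 ± 0.12 (adjusted p = 0.00466). DNMT1, the maintenance DNA methyltransferase, had 99.9 ± 15.7 CPM with methotrexate and 188 ± 12.2 in control. Under the epithelial scaling TRIM28 and DNMT1 both stood at 0.08 and SETDB1 at 0.55, and 10 of the 15 rose and 0 fell, against 78.1 and 0.233% of all genes tested. Neither lactoferrin nor both agents gave a call in the list against control.

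The other zinc finger genes of the chromosome taken by name, ZFP, ZSCAN, ZIK, ZBTB and the like, numbered 21. Of 12 tested, 6 rose and 1 fell with methotrexate, with a median log2 fold change of 0.88. That is 50 and 8.33%, against 35.4 and 29.1% of all genes tested, and 12 genes are too few to tell these shares apart. ZFP28 averaged 11.7 CPM with methotrexate and 0.016 in control, and ZSCAN18 6.98 and 0.016 CPM. ZFP36, a zinc finger protein of another type that promotes decay of mRNAs, had 61.9 CPM with methotrexate and 14.3 in control, a change of 2.11 ± 0.16. ZFP28, ZSCAN18 and ZIK1, another of the 6, were near absent outside methotrexate, as the scarce members were. Their methotrexate counts brought them into the test, which selects them for a rise.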

How the data were processed

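RNA of 12 libraries was sequenced as read pairs. Per the submitters' processing notes, CASAVA, STAR and DESeq2 were used with build hg19, with roles and versions not given in the sources used here. All counts come from 1 table. The authors deposited whole-number counts per gene for 48162 genes, of which 15233 have no count, with gene lengths and hg19 coordinates. Library totals ran from 18714054 to 60591667. Counts were filtered with filterByExpr on the 4 groups (16733 genes, 217 of 257 members), scaled with TMM and fitted with edgeR 4.0.16 (R 4.3.3) with 1 mean per group over all 12 libraries. The quasi-likelihood F test was adjusted by Benjamini-Hochberg over all genes tested. The procedure was tested on simulated data. Levels are CPM after TMM scaling, and SE is the absolute log2 fold change over the root of F. A group without counts was set to a floor of 3 counts, and ratios to 1 to 3 counts carry exact 95% counting intervals.

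The members, lists, tests and the rule for named genes were chosen with earlier results of these data known. For each comparison the rule takes up to 6 called rises and falls whose average log2 CPM is 1 or more and whose libraries in the 2 groups do not overlap. For control levels it takes the 8 highest members and each cluster's extremes. Alternatives were relative log expression factors, no filter, DESeq2 1.42.0, a replicate term, the compared groups alone, epithelial scaling, the submitters' threshold, thinning and leaving out libraries. Promoter windows are from RefSeq, at the first listed start of each symbol, and other listed starts were not used. Open reading frames, the longest per gene, are from GENCODE v29 transcripts. No sample was left out.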

Additional observations from a re-analysis of the deposited data

How the results depend on the processing

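Depth limits the scarce members, since a member without a count in a library may be present at up to 0.16 CPM in the shallowest. With methotrexate against control the number of members called was 123 by default and 198 under the epithelial scaling (198 higher, 0 lower, against 78.1 and 0.233% of all genes tested). At the submitters' threshold, an adjusted p of 0.01 and a 2-fold change, it was 61 (60 higher, 1 lower). With both agents against methotrexate it was 191 (0 higher, 191 lower) under the epithelial scaling and 64 at the submitters' threshold, in place of 121. The share of all genes at the submitters' threshold was not computed, so these counts have no baseline. The cause of the difference between scalings was not tested. Under relative log expression factors, no filter, DESeq2, the compared groups alone and thinning the counts were 117 to 136 and 115 to 123. Leaving out 1 library gave 109 to 133 and 104 to 126. The other 3 comparisons gave 0 member calls under every alternative run.

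Under the epithelial scaling the change with methotrexate against control reversed for ZNF296 (0.02), ZNF724P (0.14), ZNF444 (0.18), ZNF823 (0.26) and ZNF551 (0.31). With both agents against methotrexate it reversed for ZNF444 (-0.09), ZNF823 (-0.13), ZNF296 (-0.15) and ZNF837 (-0.15). Of the settings run for the named genes, 438 kept direction and call, 9 kept direction only and 9 reversed. The 438 include settings of genes that entered the test only through their methotrexate counts. Calls of those genes could hardly change, so the 438 does not measure how stable the calls are.

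Libraries of the same replicate number did not deviate together (18 pairs, r of -0.22 to 0.12, 2 over 0.1), and 12 of 36 correlated best with their own number, so the numbers do not pair the libraries. With the replicate block 119 members were called with methotrexate against control, 112 with both agents against methotrexate, and 0 in the other 3 comparisons.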
